A study of Mus musculus with 24 samples.

Results

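The genes described here are 9 receptors and ligands of blood vessel growth: the vascular endothelial growth factor (VEGF) receptors Flt1 and Kdr, the co-receptor Nrp1, the angiopoietin receptor Tek and its partner Tie1, the ligands Angpt1 and Angpt2, the co-receptor Eng and the apelin receptor Aplnr. They were chosen by symbol for their membership of these systems, at a time when earlier results of these data were known. Of the 9 symbols, 8 were found among the 14769 genes listed in at least 1 of the 4 deposited tables. Angpt2 was listed only in the table of PI KO and PI WT, and Aplnr was not analysed here.

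Cortex RNA was taken from male mice that were 3 to 4 months old. All had transient middle cerebral artery occlusion (tMCAo), a stroke model in which a filament blocks the artery, for 1 h and then 1 day of reperfusion. The wild-type (WT) and ciRS-7 knockout (ciRS-7 KO, here KO) animals are labelled with the same strain, C57BL/6N-Cdr1asem1Nikr, and neither an untreated nor a sham-operated group was used here. Each of 12 animals, 6 WT and 6 KO, gave a library marked CL and a library marked PI, marks that the labels do not spell out and that are kept as given. This gives 24 libraries, 6 in each combination of mark and genotype (CL WT, CL KO, PI WT and PI KO). ciRS-7, also called Cdr1as, is a circular RNA of neurons, and the knockout removes it from every cell, so the KO groups are no model of its loss in vessels alone.

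As background, VEGF-A drives endothelial growth and permeability mainly through the kinase receptor Kdr, while Flt1 binds VEGF-A more tightly and signals weakly, which makes it partly a trap for the ligand. Angpt1, made mostly by cells around the vessel, activates Tek and keeps the vessel wall quiet. Angpt2, made by endothelial cells, mostly opposes it. Eng helps BMP9, a circulating ligand of the bone morphogenetic protein family, to reach its endothelial receptor, and apelin marks sprouting vessels. In the brain all of these receptors are characteristic of endothelial cells except Nrp1, which neurons also carry as a receptor for class 3 semaphorins.

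The effective depth, read from the step size of low values, was 3.76 to 10.5 M reads per library with a median of 6.91 M reads. CL KO replicate 6 stood apart, with the lowest depth and with a value away from the tied group extremes in 10.5% to 10.6% of genes, where the next lowest library had 19.3%. The differences, the interactions and part of the pooled correlations of the genes described here are therefore also given without it. Tests were not refitted without it, since the tied values of a group rest on all 6 libraries. The values given without it carry that limit too. The genotype label was checked on Cdr1as: the values that could be recovered were 3386 to 3809 CPM (read counts relative to library size) in CL WT and 2594 to 3004 CPM in PI WT, while recoverable KO values did not exceed 0.148 CPM (CL) or 0.169 CPM (PI). Neuron markers averaged 8.57 to 8.82 log2 CPM in every library, and 24 of 25 endothelial markers were listed. In each gene and group the 2 lowest deposited values are tied and the 2 highest are tied, because extremes had been drawn in to the quartiles. A lowest or highest value below is therefore such a quartile, and no single animal's extreme. A tied low value is an upper bound and a tied high value a lower bound of that library's own value, so the order of PI and CL within an animal is given only where these bounds settle it.

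The 5 receptors Eng, Kdr, Tek, Tie1 and Flt1 had positive correlations with each other over all libraries, weak for Kdr with Tek and not the same in every group, as described further on, so their promoters are shown first for comparison. RefSeq (build GRCm38.p6) gave a promoter for 6 of the 9 genes, each 300 bases long, from 250 bases before to 50 after the start of the transcript. The missing entries are Angpt1, Angpt2 and Aplnr. Capitals mark the ETS cores CAGGAA and CCGGAA or their reverse complements TTCCTG and TTCCGG, short motifs that ETS family factors such as FLI1, ERG and ETS1 bind in endothelial genes.
Eng, chr2:32646345-32646644, plus strand: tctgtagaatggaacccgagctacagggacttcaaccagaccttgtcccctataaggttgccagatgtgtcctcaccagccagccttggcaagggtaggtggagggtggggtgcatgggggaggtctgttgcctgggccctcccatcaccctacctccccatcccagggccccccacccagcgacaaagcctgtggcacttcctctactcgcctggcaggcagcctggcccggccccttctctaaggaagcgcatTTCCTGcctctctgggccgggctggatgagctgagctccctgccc
Tek, chr4:94739039-94739338, plus strand: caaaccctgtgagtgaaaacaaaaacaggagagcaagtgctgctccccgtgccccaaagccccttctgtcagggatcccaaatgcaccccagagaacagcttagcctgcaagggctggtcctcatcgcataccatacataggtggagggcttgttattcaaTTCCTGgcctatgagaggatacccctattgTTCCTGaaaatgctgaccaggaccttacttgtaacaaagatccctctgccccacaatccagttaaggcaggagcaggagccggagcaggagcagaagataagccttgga
Tie1, chr4:118489800-118490099, minus strand: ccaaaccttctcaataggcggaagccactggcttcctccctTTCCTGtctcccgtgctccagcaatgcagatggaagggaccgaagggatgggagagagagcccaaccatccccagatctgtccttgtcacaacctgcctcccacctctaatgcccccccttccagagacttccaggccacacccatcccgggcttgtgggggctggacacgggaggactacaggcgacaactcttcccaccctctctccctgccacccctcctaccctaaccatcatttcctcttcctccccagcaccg
Kdr, chr5:75978406-75978705, minus strand: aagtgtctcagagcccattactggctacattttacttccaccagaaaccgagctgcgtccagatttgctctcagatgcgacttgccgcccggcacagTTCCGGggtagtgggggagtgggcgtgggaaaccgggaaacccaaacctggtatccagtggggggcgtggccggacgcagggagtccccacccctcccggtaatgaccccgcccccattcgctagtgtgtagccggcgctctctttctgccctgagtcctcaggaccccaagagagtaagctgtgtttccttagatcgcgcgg
Flt1, chr5:147725962-147726261, minus strand: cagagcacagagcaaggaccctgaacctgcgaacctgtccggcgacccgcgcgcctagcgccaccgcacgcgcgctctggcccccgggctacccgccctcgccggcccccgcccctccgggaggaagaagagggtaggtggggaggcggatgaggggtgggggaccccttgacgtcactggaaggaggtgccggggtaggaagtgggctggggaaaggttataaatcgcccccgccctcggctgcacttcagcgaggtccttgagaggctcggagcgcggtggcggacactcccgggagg
CAGGAA, read on both strands, was found in Eng at base 6 after the start, in Tek at -89 and -59, and in Tie1 at -209. CCGGAA was found in Kdr at -153. No copy of either was found in the windows of Flt1 and Nrp1. Such matches are common: CAGGAA occurred in 30.6% and CCGGAA in 14.9% of 32851 RefSeq promoters of the same length. The SP1 box GGGCGG, present in 35.7% of promoters, was found in Kdr, Flt1 and Nrp1, and the TATA box TATAAA, present in 13.6%, was found in Flt1 at -31. The GATA box AGATAA, present in 11.2%, was found in Tek at 37. The hypoxia response core ACGTG (19.6%) and the FOX box TGTTTA (13.4%) were found in none of the 6 windows. These matches describe the letters of the windows and are not evidence of binding.

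Per kilobase of exon, Nrp1 was the most abundant of the 8 genes in every group, with group medians of 4.24 to 6.06 CPM per kb. Flt1 was next, with medians of 1.47 to 2.16 CPM per kb. Angpt1, with medians of 1.06 to 1.63 CPM per kb, Tek, with 0.950 to 1.25, and Eng, with 0.673 to 1.09, overlapped in their order between groups. Kdr had medians of 0.466 to 0.672 CPM per kb. Angpt2, measured only in the PI groups, had 0.534 CPM per kb in PI WT and 0.684 CPM per kb in PI KO, a range that overlaps with Kdr. Tie1 was the least abundant, with medians of 0.226 to 0.439 CPM per kb. The libraries hold total RNA, so reads from introns may be part of these levels if they were counted.

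**Figure D1:**
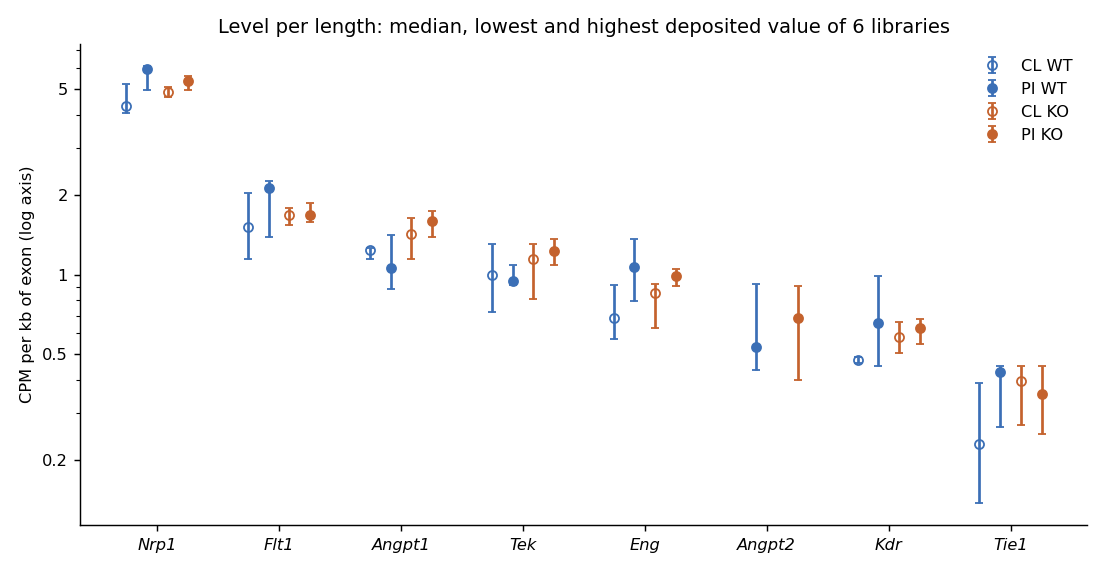
Level of each gene in CPM per kb of exon (log axis) in the 4 groups, from the tables of PI and CL (Angpt2 from PI KO and PI WT), with a point at the group median and a line from the lowest to the highest deposited value. Nrp1 lies above the other genes and Tie1 lowest, with Flt1 second.

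None of the genes passed the test in any comparison. The test was an unpaired, moderated trimmed-mean test, although CL and PI libraries come from the same animals, with Benjamini-Hochberg adjustment over all genes of a table, with an adjusted p under 0.05 counted as a call. In PI WT against CL WT 0 of 7 listed genes were called, where 10.6% of all genes were, and in PI KO against CL KO 0 of 7, where 10% of all genes were. In PI KO against PI WT 0 of 8 were called beside 0.0208% of all genes, and in CL KO against CL WT 0 of 7 beside 0.0279%. In the interaction, the difference of KO and WT in their PI minus CL value, 0 of 7 were called beside 0% of all genes. At an unadjusted p under 0.05 the counts were 1 (Nrp1), 0, 1 (Angpt1), 0 and 0 in the same order, beside 23.9%, 24.9%, 5.75%, 5.73% and 4.55% of all genes. With limma run on the deposited values as they stand, 3, 2, 2, 1 and 0 were called. Over all genes that fit called 6459 of 14489 in PI WT against CL WT and 6666 of 14338 in PI KO against CL KO. With the animal as a block in that fit, 4 of 7 were called in WT (Flt1, Kdr, Nrp1 and Eng) and 1 of 7 in KO (Nrp1). In WT the blocked fit called 6614 of all 14489 genes, where the trimmed-mean test called 1537. Its share of all genes in KO is not given here, so these counts are not read as a result about these genes. Without the block, limma called 2388 and 2311 of all genes in the PI and CL genotype comparisons, where the trimmed-mean test called 3 and 4. Since the tissue is bulk cortex, fewer endothelial cells and less RNA per endothelial cell cannot be told apart in any value below. A missed threshold at 6 animals a group does not show that levels were equal, so the 95% intervals are given.

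**Figure D2:**
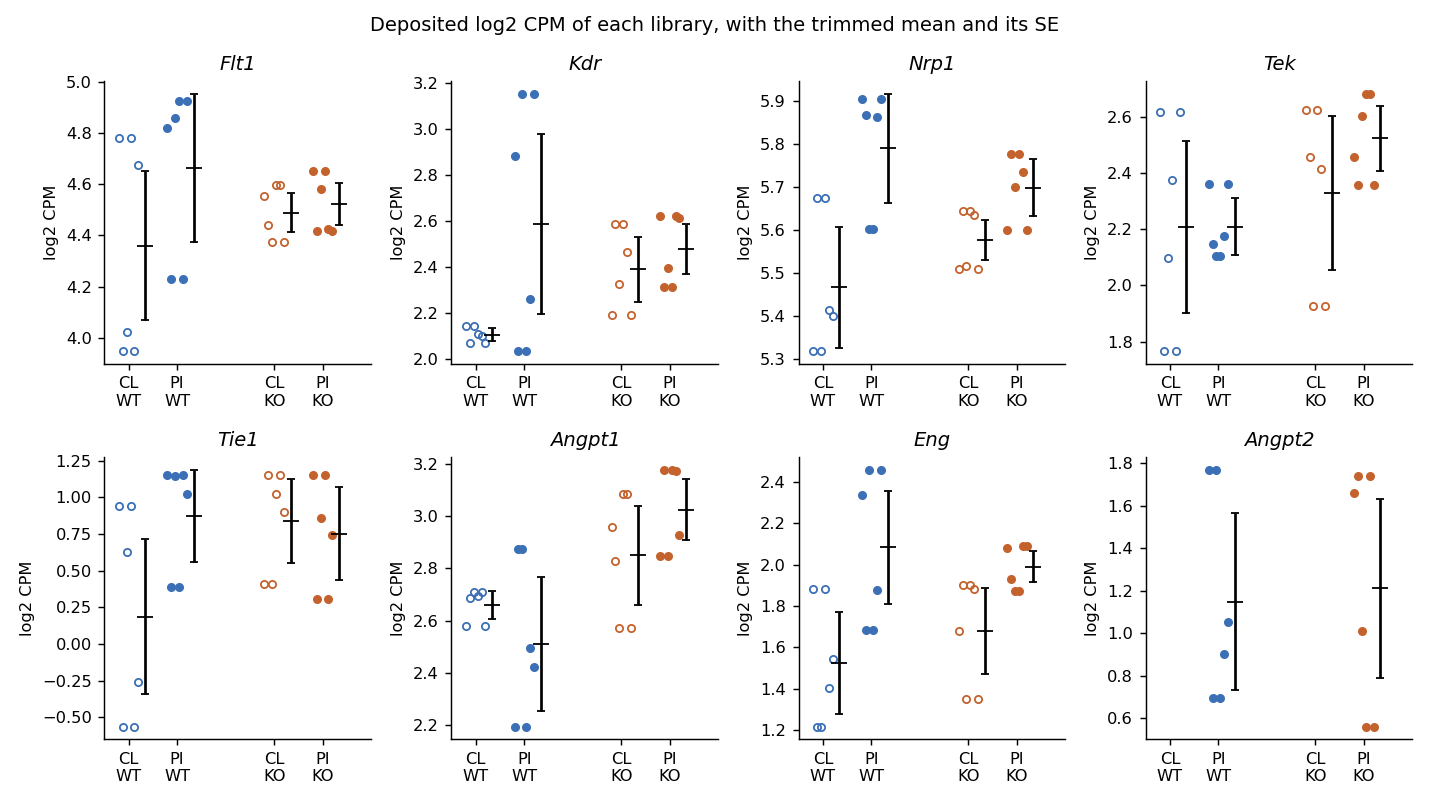
Deposited log2 CPM of each gene in every library of the 4 groups (points, Angpt2 in PI only), with each group's trimmed mean and its SE. PI WT lies high for Eng, Kdr and Nrp1 with overlap of the groups, and Tie1 spreads most within CL WT.

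Flt1, the VEGF trap receptor, lies on chromosome 5 at 147561604 to 147726011 (minus strand, GRCm38). In CL WT the deposited values ran from 3.95 over a median of 4.35 to 4.78 log2 CPM, and in PI WT from 4.23 over 4.84 to 4.93. The ranges overlapped, and within animals PI was above CL in 2, with the order not settled in the other 4. The mean difference was 0.30 on the log2 scale (SE 0.29, 95% interval -0.32 to 0.93, adjusted p = 0.586). Values in KO were closer together, from 4.38 over 4.50 to 4.60 log2 CPM in CL KO and from 4.42 over 4.50 to 4.65 in PI KO. The KO difference of 0.03 (SE 0.11, 95% interval -0.20 to 0.27, adjusted p = 0.882) limits a change of Flt1 to between 0.871-fold and 1.20-fold, the narrowest bound of the receptor kinases in either genotype. With the animal as a block, limma on the deposited values called Flt1 in WT (adjusted p = 0.0159). That fit uses the same understated spread and called 6614 of all 14489 genes in WT, where the trimmed-mean test, which has no block, called 1537.

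Kdr, the main signalling receptor for VEGF-A, lies on chromosome 5 at 75932827 to 75978458 (minus strand). CL WT was narrow, from 2.07 over 2.11 to 2.14 log2 CPM, while PI WT ran from 2.04 over 2.57 to 3.15 and so enclosed it. The PI minus CL difference in WT was 0.48 (SE 0.30, 95% interval -0.17 to 1.13, adjusted p = 0.369), a 1.40-fold ratio of the means. Limma with the animal as a block called it (adjusted p = 0.0360), but that fit uses the understated spread and called far more of all genes, as given with Flt1. The WT difference was uneven between libraries: 3 PI WT libraries lay at or above 2.88 log2 CPM and the other 3 at or below 2.26. Kdr in KO spanned 2.19 over 2.40 to 2.59 log2 CPM in CL KO and 2.31 over 2.50 to 2.62 in PI KO, with a difference of 0.09 (SE 0.18, 95% interval -0.31 to 0.49, adjusted p = 0.816).

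Nrp1, the co-receptor of VEGF-A and of the axon-repelling ligand Sema3a, lies on chromosome 8 at 128358604 to 128503363 (plus strand). CL WT ran from 5.32 over 5.41 to 5.67 log2 CPM and PI WT from 5.60 over 5.86 to 5.90, a small overlap. The WT difference of 0.32 (SE 0.14, 95% interval 0.02 to 0.63) had the smallest p of the 7 genes in that comparison and missed the threshold after adjustment (adjusted p = 0.183). Nrp1 was higher in PI in 3 WT animals, lower in 1 and not settled in 2, and limma with the animal as a block gave an adjusted p of 0.00566. In KO it was higher in PI in 2 animals and not settled in 4, and the groups overlapped, with CL KO from 5.51 over 5.58 to 5.64 log2 CPM and PI KO from 5.60 over 5.72 to 5.78. The KO difference was 0.12 (SE 0.08, 95% interval -0.05 to 0.30, adjusted p = 0.389), or 1.09-fold. The blocked limma fit, which uses the understated spread of the deposited values, gave an adjusted p of 0.00569.

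Tek, the receptor of the angiopoietins, lies on chromosome 4 at 94739289 to 94874976 (plus strand). Its CL and PI libraries had nearly the same mean in WT, with a difference of 0.00 (SE 0.26, 95% interval -0.56 to 0.57, adjusted p = 0.998). CL WT was wide, from 1.77 over 2.24 to 2.62 log2 CPM, and PI WT lay inside it, from 2.10 over 2.16 to 2.36. The sign of this difference changed in 5 of the 12 cases in which 1 library was left out. Tek in KO ran from 1.93 over 2.44 to 2.62 log2 CPM in CL and from 2.36 over 2.53 to 2.68 in PI, a difference of 0.19 (SE 0.25, 95% interval -0.34 to 0.73, adjusted p = 0.685).

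Tie1, the partner of Tek that binds no angiopoietin strongly by itself, lies on chromosome 4 at 118471191 to 118490061 (minus strand). It rested on few reads, 5.37 to 22.9 per library by the deposited values, and its errors were the widest of the 7 genes. Both ends are tied values, so a library's own count can lie outside this range. CL WT ran from -0.56 over 0.18 to 0.94 log2 CPM and PI WT from 0.39 over 1.08 to 1.15. Tie1 was higher in PI in 3 WT animals, lower in 1 and not settled in 2, and the WT difference was 0.69 (SE 0.50, 95% interval -0.40 to 1.77, adjusted p = 0.458), the largest of the 7 genes but within its error. The KO groups overlapped almost fully, from 0.41 over 0.96 to 1.15 log2 CPM in CL and from 0.30 over 0.80 to 1.15 in PI, with a difference of -0.09 (SE 0.39, 95% interval -0.93 to 0.75, adjusted p = 0.919).

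Angpt1, the activating ligand of Tek, lies on chromosome 15 at 42424723 to 42676977 (minus strand) and overlaps the antisense gene Gm17473, whose reads cannot be separated where strand was not used in counting. In WT it was the only one of the 7 genes with a lower mean in PI: CL WT ran from 2.58 over 2.69 to 2.71 log2 CPM and PI WT from 2.20 over 2.46 to 2.87, a difference of -0.15 (SE 0.22, 95% interval -0.62 to 0.32, adjusted p = 0.740). In KO the mean was higher in PI by 0.17 (SE 0.19, 95% interval -0.24 to 0.59, adjusted p = 0.629), with CL KO from 2.57 over 2.89 to 3.08 log2 CPM and PI KO from 2.85 over 3.05 to 3.18. Angpt1 was higher in PI in 1 WT animal and lower in 2, and higher in 2 KO animals and lower in 1, with the others not settled. The difference between the genotypes in this step was 0.33 (SE 0.31, adjusted p = 0.992).

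Angpt2, the antagonistic ligand, lies on chromosome 8 at 18690263 to 18741562 (minus strand), where Mcph1 overlaps it on the opposite strand. In the table that lists it, PI WT ran from 0.69 over 0.98 to 1.77 log2 CPM and PI KO from 0.56 over 1.34 to 1.74. The deposited values correspond to 7.77 to 33.0 reads per library, with tied values at both ends. The KO minus WT difference of 0.06 had an SE of 0.47 and a 95% interval of -0.95 to 1.08, which spans ratios from 0.519-fold to 2.11-fold. Its PI minus CL value was not analysed here.

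Eng, the endothelial co-receptor whose loss causes hereditary hemorrhagic telangiectasia, lies on chromosome 2 at 32646595 to 32682669 (plus strand) and overlaps Fpgs on the opposite strand. CL WT ran from 1.22 over 1.48 to 1.88 log2 CPM and PI WT from 1.68 over 2.11 to 2.46. The WT difference was 0.56 (SE 0.30, 95% interval -0.09 to 1.20, adjusted p = 0.287), a 1.47-fold ratio, and PI was above CL in 3 animals, below in 1 and not settled in 2. Limma with the animal as a block gave an adjusted p of 0.0170, but that fit uses the understated spread and called far more of all genes, as given with Flt1. In KO the values were 1.35 over 1.78 to 1.90 log2 CPM in CL and 1.87 over 2.0 to 2.09 in PI, which overlap only slightly. That difference was 0.31 (SE 0.23, 95% interval -0.18 to 0.80, adjusted p = 0.441), again with 3 animals above, 1 below and 2 not settled, and it was the largest of the 7 genes in KO.

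Read together, the 7 genes had a median PI minus CL value of 0.32 in WT, with 6 above 0 and 1 below, beside a median of 0.01 and 52.3% above 0 over all genes. In KO the median was 0.12, also with 6 above 0, beside -0.00 and 49.9%. From the deposited means without CL KO replicate 6, PI minus CL in KO was 0.01 for Flt1, 0.05 for Kdr, 0.11 for Tek, 0.12 for Angpt1, 0.25 for Eng, 0.11 for Nrp1 and -0.08 for Tie1. The genotypes' own values for the difference of these steps (KO minus WT) were -0.77 (SE 0.67) for Tie1, -0.39 (SE 0.38) for Kdr, -0.27 (SE 0.34) for Flt1, -0.25 (SE 0.39) for Eng, -0.20 (SE 0.18) for Nrp1, 0.19 (SE 0.38) for Tek and 0.33 for Angpt1. All 7 had an adjusted p of 0.992, so no gene was shown to respond differently in KO. From the deposited means without CL KO replicate 6 these values were -0.76 for Tie1, -0.43 for Kdr, -0.31 for Eng, -0.29 for Flt1, -0.21 for Nrp1, 0.11 for Tek and 0.27 for Angpt1.

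**Figure D3:**
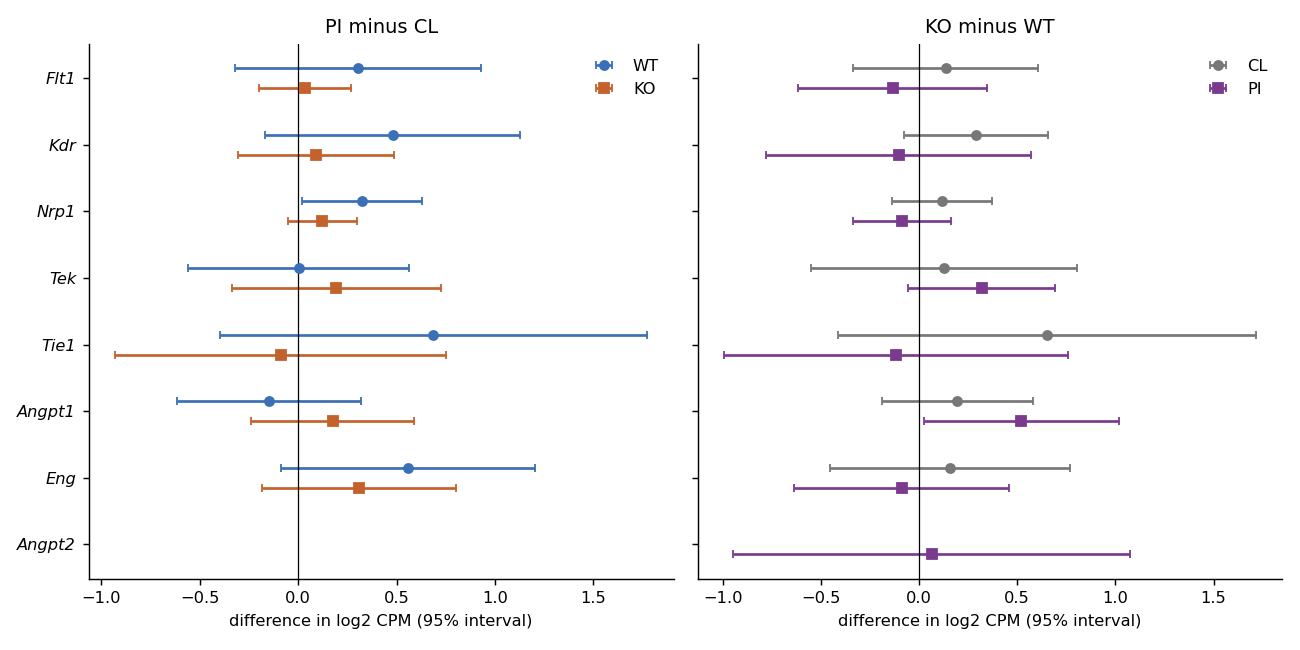
Differences on the log2 scale with 95% intervals for each gene in PI against CL of each genotype and KO against WT of each side. All but 2 intervals cross 0, the exceptions being Nrp1 in PI WT against CL WT and Angpt1 in PI KO against PI WT, neither of which passed the adjusted test.

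Within the CL libraries, all 7 listed genes had a higher mean in KO than in WT, by 0.12 to 0.65 on the log2 scale with a median of 0.16, where the median of all genes was -0.00 and 49.2% were above 0. Kdr was the only one whose groups did not overlap: CL WT ran from 2.04 over 2.07 to 2.11 log2 CPM and CL KO from 2.16 over 2.37 to 2.56. Such separation upward was seen in 6.7% of all genes of that table, and the Kdr difference of 0.29 (SE 0.17, 95% interval -0.08 to 0.66) had an adjusted p of 0.890. Tie1 differed most, by 0.65 (SE 0.49, 95% interval -0.41 to 1.72, adjusted p = 0.920), with CL WT from -0.59 over 0.15 to 0.91 log2 CPM and CL KO from 0.38 over 0.93 to 1.12. The differences of Angpt1 (0.19), Eng (0.16), Flt1 (0.14), Tek (0.13) and Nrp1 (0.12) had 95% intervals that crossed 0. Without CL KO replicate 6, from the deposited means, the differences were 0.64 for Tie1, 0.33 for Kdr, 0.25 for Angpt1, 0.22 for Eng, 0.21 for Tek, 0.16 for Flt1 and 0.13 for Nrp1. Leaving out any 1 of the 12 libraries from the deposited means kept all 7 above 0. The lowest values were 0.05 for Flt1 and 0.04 for Tek, both without CL WT replicate 2, with which replicate 5 is tied. The tied values still rest on the library left out, so this check could move the means only a little. This comparison and PI WT against CL WT share the CL WT libraries, in which Flt1, Kdr, Nrp1, Tie1 and Eng had their lowest group means, so the higher values in both are not separate evidence. Some other vascular lists, read further on, were also mostly higher in CL KO. Above 0 were 16 of 23 endothelial markers (median 0.15), 8 of 8 endothelial transcription factors (0.22) and 6 of 7 vascular fibroblast markers (0.33). Pericyte markers (3 of 8, median -0.03) and smooth muscle markers (1 of 3, -0.04) were not. Neither were the angiopoietin and Tie list (1 of 4, -0.10) and Apln (-0.26). One-sided lists were not particular to vessels: microglia markers were above 0 in 9 of 10 (median 0.19) and oligodendrocyte markers in 0 of 8 (-0.17). Astrocyte markers were above 0 in 4 of 8 (-0.00) and neuron markers in 3 of 10 (-0.01). Several of the 7 genes also varied together within groups, so their 7 signs are not separate results.

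Within the PI libraries, 3 of 8 genes had a higher mean in KO and 5 a lower one, with a median of -0.09, where 48.5% of all genes were above 0. Angpt1 had the largest difference, with PI WT from 2.23 over 2.49 to 2.90 log2 CPM and PI KO from 2.88 over 3.08 to 3.21. The groups met at a narrow overlap, and the difference was 0.52 (SE 0.23, 95% interval 0.02 to 1.02), 1.43-fold, with an adjusted p of 0.854. Tek followed, with PI WT from 2.13 over 2.19 to 2.39 log2 CPM and PI KO from 2.39 over 2.56 to 2.72, a difference of 0.32 (SE 0.17, 95% interval -0.06 to 0.69, adjusted p = 0.854). Angpt1 and Tek were thus the 2 largest differences of the 8, both toward KO, and neither passed the test. A link between the 2 was not tested. Flt1 (-0.13), Tie1 (-0.12), Kdr (-0.10), Eng (-0.09) and Nrp1 (-0.09) had a lower mean in KO by less than 1 SE each.

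The other genes of these systems were read from 6 lists of 67 genes in all. In WT 48 were listed and 12 were called, 8 higher and 4 lower in PI (25%, beside 10.6% of all genes, of which 5.2% were higher and 5.4% lower). In KO 46 were listed and 3 were called, 2 higher and 1 lower (6.52%, beside 10%, of which 5.11% were higher and 4.94% lower). Without a trend in the prior variance the count in WT was 5 in place of 12, and limma on the deposited values gave 26. The count in KO was 6 with each group centred on its median gene and 21 with limma. The shares of all genes above belong to the trimmed-mean test with a trend and do not apply to these settings. Limma called far more of all genes, as given in the last section. The trimmed-mean test called none between genotypes on either side or in the interaction, where limma called 7 (PI), 11 (CL) and 7. Whether WT and KO differ in these counts was not tested.

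**Figure D4:**
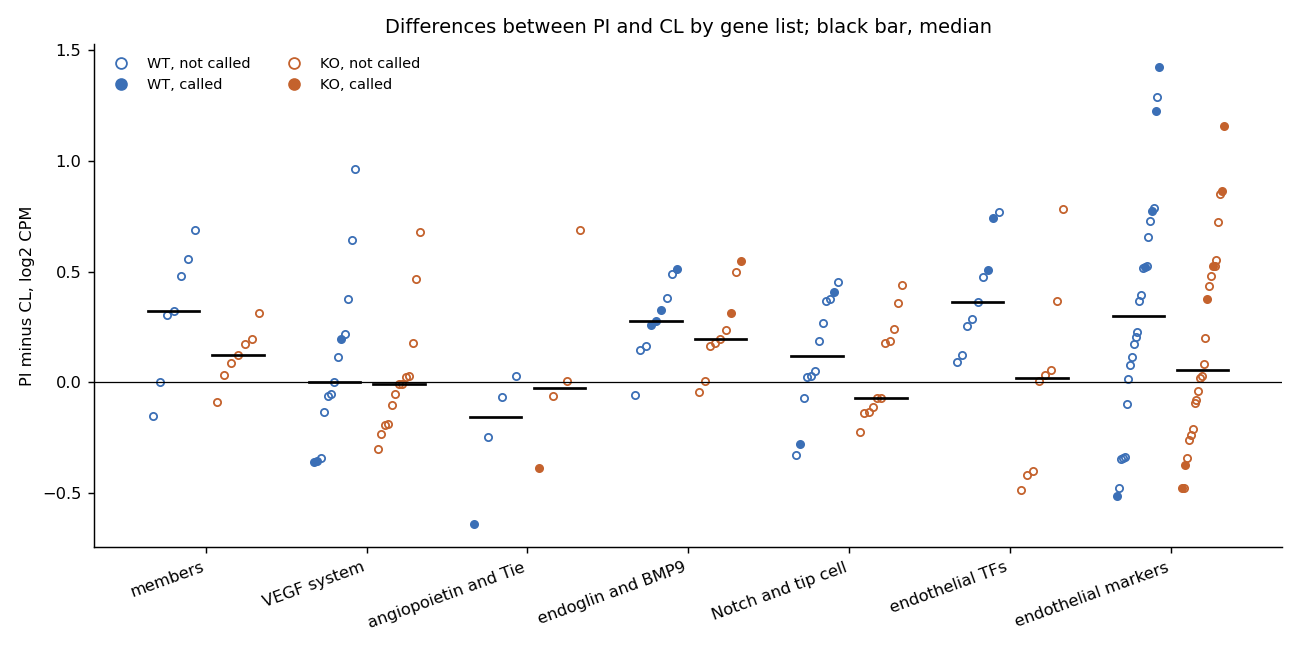
PI minus CL difference on the log2 scale for the 7 genes described here, 5 pathway lists (all but the apelin list, of which only Apln was listed) and the endothelial markers, in WT and KO, with filled points for called genes and a bar at each median. In WT the medians of the 7 genes, the endoglin list, the transcription factors and the endothelial markers lie between 0.28 and 0.36.

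Among ligands and co-receptors of the VEGF system, 1 of 13 listed genes rose and 2 fell in WT PI, and none was called in KO. Sema3a, the secreted semaphorin that shares Nrp1 with VEGF-A, fell by 0.36 on the log2 scale (adjusted p = 0.0138). Plxnd1, a semaphorin receptor, also fell by 0.36 (adjusted p = 0.0143), and Plxna4, a neuronal partner of Nrp1, rose by 0.20 (adjusted p = 0.0359). The KO values were -0.23 for Sema3a (adjusted p = 0.144), -0.30 for Plxnd1 (adjusted p = 0.0628) and 0.03 for Plxna4 (adjusted p = 0.834). The ligands themselves were not called: PI minus CL in WT and KO was 0.11 and -0.01 for Vegfa, 0.00 and -0.19 for Vegfb, and 0.38 and 0.18 for Vegfc. Vegfd, a lymphatic growth factor named after its values were seen, had the largest values of these ligands, 0.64 in WT (SE 0.28, adjusted p = 0.179) and 0.68 in KO (SE 0.31, adjusted p = 0.20). Its groups did not overlap in either genotype, as in 16.5% and 17.1% of all genes. The related receptors Nrp2 (0.22 and -0.05) and Flt4, the VEGF-C receptor (0.96 and 0.47), were not called either. Pgf was not analysed here.

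Of the angiopoietin and Tie list, 4 of 8 genes were listed, and Grb14, an adaptor that binds activated receptor kinases including Tek, was the only one called. It fell by 0.64 in WT (adjusted p = 0.00138) and by 0.39 in KO (adjusted p = 0.0368). Ptprb, the phosphatase that restrains Tek, had -0.07 in WT and -0.06 in KO. Apln, the ligand of the receptor Aplnr, had -0.57 in WT and -0.45 in KO and was not called, and Apela was not analysed here.

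In the list around endoglin and BMP9, 4 of 9 listed genes rose in WT and 2 in KO, and none fell. Smad5, which carries the signal to the nucleus, rose by 0.26 in WT (adjusted p = 0.0352) and 0.32 in KO (adjusted p = 0.0124). Its target Id3, an inhibitor of basic helix-loop-helix factors, rose by 0.51 (adjusted p = 0.0168) and 0.55 (adjusted p = 0.0116). Id2 rose by 0.33 (adjusted p = 0.00238) and Smad9 by 0.28 (adjusted p = 0.0493) in WT. Smad5, Id2 and Id3 are made by many cell types of the cortex, whereas the endothelial receptor Acvrl1, which pairs with Eng, had 0.49 in WT and 0.50 in KO and was not called. Gdf2, which encodes BMP9, was not analysed here.

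Of 12 listed Notch and tip cell genes, Notch1 rose by 0.41 (adjusted p = 0.0394) and S1pr1, a receptor for sphingosine 1-phosphate, fell by 0.28 (adjusted p = 0.0456) in WT, and none of 11 was called in KO. Notch1 had 0.19 in KO (adjusted p = 0.315). S1pr1 had -0.22 in KO (adjusted p = 0.0696), and its groups did not overlap in either genotype, as in 16.3% (WT) and 17.2% (KO) of all genes in that direction. Of the endothelial transcription factors, Fli1 rose by 0.74 (adjusted p = 0.0132) and Ets1 by 0.51 (adjusted p = 0.0219) in WT. All 9 listed factors were above 0 there with a median of 0.36. In KO 0 of 8 were called, with a median of 0.02. Fli1 and Ets1 are also expressed in blood cells, so they are not specific to vessels.

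Some markers of endothelium and of other cells were called between PI and CL, most were not. Of 24 endothelial markers listed, 4 rose and 1 fell in WT PI (median 0.30, 18 above 0), and 4 rose and 2 fell in KO PI (median 0.06, 14 above 0), beside 10.6% and 10% of all genes called. Without a trend in the prior variance the counts called were 3 in place of 5 in WT and 3 in place of 6 in KO, and limma on the deposited values gave 15 in each. The shares of all genes above do not apply to these settings. Cd93, an endothelial lectin-like receptor, rose by 1.42 in WT (adjusted p = 0.00188) and 0.87 in KO (adjusted p = 0.0496). Ctla2a rose by 1.22 (adjusted p = 5.31e-05) and 1.15 (adjusted p = 0.00391). Mmrn2, a matrix protein that binds Cd93, had 1.29 in WT without passing the test. Itm2a fell by 0.51 in WT (adjusted p = 0.0199) and had -0.48 in KO without a call, and Slco1a4, a transporter of the blood-brain barrier, had -0.48 in WT without a call and fell by 0.48 in KO (adjusted p = 0.00234). The adhesion molecule Pecam1 (0.40 and 0.48), the junction protein Cdh5 (0.79 and 0.55) and the tight junction protein Cldn5 (0.53 and 0.03) were not called. The mean of the endothelial markers per library in WT was 2.93 to 3.32 log2 CPM on the CL side and 3.26 to 3.65 on the PI side, and in KO it was 3.10 to 3.41 and 3.28 to 3.56.

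Microglia markers had a median PI minus CL value of 0.61 in WT and 0.63 in KO, with 6 of 10 called higher and 1 lower in each. Pericyte markers had -0.09 and -0.05, with 1 of 8 called lower in WT, and neuron markers -0.22 and -0.18. Vascular fibroblast markers had medians of 0.77 and 0.13, with 1 of 7 rising and 1 falling in each genotype. Dcn, a matrix proteoglycan, rose by 1.32 in WT (adjusted p = 0.000654) and 1.11 in KO (adjusted p = 0.00512), and the growth factor Igf2 fell by 0.76 (adjusted p = 0.000367) and 0.77 (adjusted p = 0.0114). The mean of that list per library was 2.43 to 2.90 log2 CPM in CL and 3.09 to 3.35 in PI of WT, without overlap, and 2.81 to 3.21 and 3.05 to 3.41 in KO, with overlap. Astrocyte markers had -0.09 and -0.13, oligodendrocyte markers -0.37 and -0.15, and the 3 listed smooth muscle markers -0.49 and -0.14. Of 9 markers of infiltrating leukocytes, 0 were listed in the tables of PI and CL. In the table of PI KO and PI WT 2 were listed, S100a8 (1.16, SE 0.46, adjusted p = 0.854) and S100a9 (0.77, adjusted p = 0.877), both alarmins of neutrophils. S100a8 lay higher in KO without overlap, as did 6.94% of all genes of that table, in which the differences of Angpt1 and Tek were measured. Transcripts of red blood cells, a sign of retained blood, summed to 12.3 to 52.1 CPM in CL WT and 30.0 to 50.4 CPM in PI WT. In KO they summed to 10.8 to 61.8 CPM in CL and 35.4 to 51.4 CPM in PI. All 4 listed transcripts had a higher mean in PI in WT (median 0.72) and in KO (0.49). They were also higher in PI KO than in PI WT (0.30), and 0 were called in these comparisons. The part of these cell markers in the values of the 7 genes was not tested.

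Whether the genes vary together within a group was described with Pearson's r over the 24 libraries after the mean of each group had been removed. These points share animals, depth and the tied extremes, so r is given as a description. Kdr and Eng varied most closely (r = 0.78). Flt1 followed Tek (0.65) and Eng (0.65), Tek followed Eng (0.60), and Tie1 followed Eng (0.56), Flt1 (0.48) and Tek (0.44). Kdr was less close to Tie1 (0.37), Flt1 (0.34) and Tek (0.19). Nrp1 and Angpt1 had pooled r from -0.20 to 0.20 against every other gene and against each other, which averages over groups of opposite sign: Angpt1 had 0.98 with Flt1 and 0.90 with Tek in CL KO but -0.69 and -0.80 in CL WT, and Nrp1 had 0.95 with Kdr in CL KO but -0.76 in PI KO. The pattern was not the same in all groups: Kdr and Eng had 0.997 in PI WT, 0.94 in PI KO, 0.78 in CL KO and 0.29 in CL WT, and Flt1 and Eng had 0.91 in CL WT and -0.38 in PI KO. In PI KO Tek and Eng (-0.30), Tie1 and Eng (-0.20), Flt1 and Kdr (-0.20) and Kdr and Tek (-0.12) were negative too. A group has 6 libraries with 4 tied values, so r within it rests on few points. Without CL KO replicate 6 the pooled values were 0.78 for Kdr and Eng, 0.67 for Flt1 and Tek, 0.65 for Flt1 and Eng, and 0.15 for Kdr and Tek. They were -0.24 for Angpt1 and Flt1, 0.06 for Angpt1 and Tek, and 0.02 for Nrp1 and Kdr. The r within CL KO alone and the most similar genes given below were not recomputed without it.

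**Figure D5:**
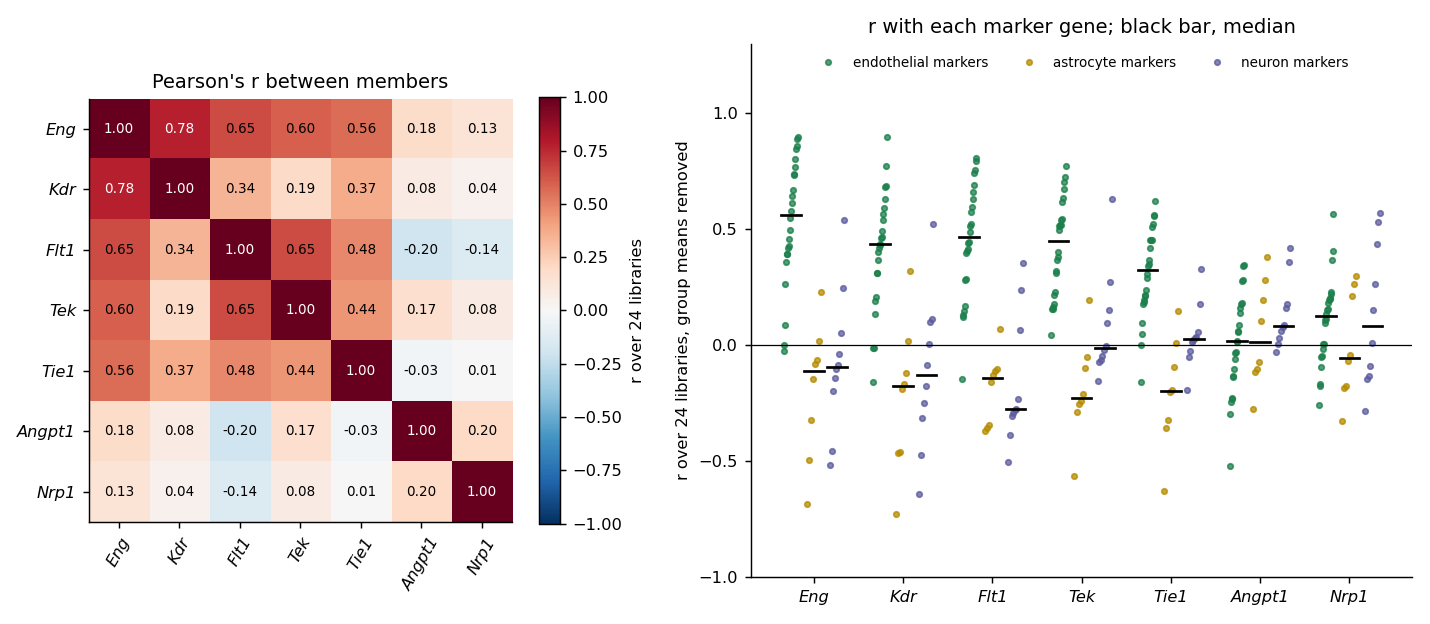
Pearson's r between each pair of the 7 genes, (left, coloured by r), and r of each gene with single markers of endothelium, astrocytes and neurons (right, with a bar at the median), over 24 libraries after removal of group means. Eng, Kdr, Flt1, Tek and Tie1 form a block of positive pooled values and have their highest medians with endothelial markers, and the pooled values of Angpt1 and Nrp1 lie between -0.20 and 0.20.

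The same 5 receptors had their highest r with the endothelial markers. Against the mean of the 24 markers, r was 0.87 for Eng, 0.72 for Flt1, 0.68 for Tek, 0.67 for Kdr and 0.50 for Tie1, and 0.15 for Nrp1 and 0.05 for Angpt1. Without CL KO replicate 6 these were 0.86, 0.72, 0.66, 0.65, 0.52, 0.12 and -0.03 in the same order. Against the mean of the pericyte markers the 5 receptors had lower but positive r, 0.52 for Eng, 0.56 for Flt1, 0.59 for Tek, 0.42 for Kdr and 0.36 for Tie1, and against the mean of the astrocyte markers r from -0.61 to -0.43. Of the 24 markers 23 had a positive r with Eng, 24 with Tek, and 13 with Angpt1. In PI WT the marker mean was 3.58 to 3.65 log2 CPM in animals 1, 3 and 6 and 3.26 to 3.35 in the other 3, and the same 3 libraries held the 3 highest Kdr values of PI WT. Against the log2 of depth, r was 0.49 for Nrp1, 0.33 for Angpt1, 0.24 for Tek, 0.23 for Eng and between -0.07 and 0.09 for Flt1, Kdr and Tie1. The part of endothelial and pericyte content and of depth in the values of these genes was not tested.

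Over 11792 genes with a mean of at least 2 log2 CPM, the genes most like each one by the same r were as follows. Eng was closest to Igfbp7 (0.93), a secreted vascular protein, Adgrf5 (0.90), an adhesion receptor of endothelium, and Abcb1a (0.89), the drug efflux pump of the blood-brain barrier. Kdr was closest to the tight junction protein gene Ocln (0.90), then Ccdc57 (0.86) and Nsun5 (0.80). Tek was closest to Syne2 (0.85), Podxl (0.77), a sialomucin of vessel lumens, and Atp10a (0.76). Flt1 was closest to Srrm2 (0.91), Leng8 (0.89) and Zfhx2 (0.89), of which Srrm2 encodes a splicing factor. Tie1 was closest to Eml5 (0.81), Pik3c2b (0.73) and Uhrf1bp1 (0.73). Nrp1 was closest to Neurod6 (0.87), a transcription factor of excitatory cortical neurons, Syf2 (0.83) and Ppp1r11 (0.80). Angpt1 was closest to the ribosomal protein gene Rpl31 (0.80), Cog4 (0.80) and Cinp (0.77). Each is the highest of 11792 values, of which the 99th percentile was 0.52 to 0.71 depending on the gene.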

How the data were processed

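Ribosome-depleted total RNA of 24 cortex libraries was measured. The deposited values are log2 CPM per gene in 4 tables, 1 per pair of groups, per the file headers. The genome build is mm10, per the submitters' processing notes. Aligner, counter, strand use, annotation, gene filter and scaling are not given in the sources used here. The deposited log2 values are Winsorized: within each gene and group of 6 libraries, the outer values equal the quartiles (0.75 times the second value plus 0.25 times the third), which leaves 4 recoverable values and shrinks the visible spread.

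Means of the recovered values, with the Winsorized sum of squares as error and 6 degrees of freedom (12 for the interaction), were tested without pairing in limma 3.58.1 (R 4.3.3) with a mean-dependent prior, two-sided. Benjamini-Hochberg adjustment ran over all genes of a table, and calls were made at 0.05. Tables were scaled separately, so tests stay within a table, except the interaction, which subtracts PI minus CL values of 2 tables. Depth came from the step of low values, where 71.7% to 89.6% of values were whole within 0.03 read, and 3 reads correspond to 0.286 to 0.798 CPM.

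The members and all gene lists were chosen with earlier results of these data known. Named genes are all members, the called genes of the pathway lists, the direct binding partners, the endothelial markers Pecam1, Cdh5 and Cldn5 with the 2 largest changes each way in PI against CL, and the 3 genes most like each member. Ctla2a, named for KO, is given in both genotypes. Outside this rule, Dcn and Igf2 are named as the called vascular fibroblast markers and S100a8 and S100a9 as the listed leukocyte markers. Vegfd was named after its values were seen. Replicate numbers name 1 animal for the CL and PI libraries of a genotype, per the labels, which pairs them. Deviations of the 2 libraries of an animal correlated at -0.14 to 0.33 in WT (median 0.27) and -0.01 to 0.17 in KO (median 0.02). The animal's own CL library was the closest match for 4 of 6 PI libraries in WT and 2 of 6 in KO. Libraries that share only a number between genotypes also had a median of 0.02 on each side. In KO the pairing therefore rests on the labels. Gene positions and exon lengths are from GENCODE M21 on GRCm38, and promoters from RefSeq GRCm38.p6. Alternatives were limma on deposited values with and without a replicate block, no trend, centring, a filter at 1 CPM, a floor at 0.5 CPM, and each library left out, the last, and what was computed without CL KO replicate 6, chosen after seeing the data.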

Additional observations from a re-analysis of the deposited data

How the results depend on the processing

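Over 36 member results and 6 settings, 200 values kept their direction and side of the threshold. Limma on the deposited values made 3 of the genes pass in PI WT against CL WT, 2 in PI KO against CL KO, 2 in PI KO against PI WT and 1 in CL KO against CL WT. Over all genes that test called 6459, 6666, 2388 and 2311 genes in the same order, and 1940 in the interaction, where the trimmed-mean test called 1537, 1440, 3, 4 and 0. With a replicate block, which in PI against CL is the animal, the counts of genes described here were 4 (Flt1, Kdr, Nrp1 and Eng), 1 (Nrp1), 1 (Angpt1) and 0. The blocked count over all genes is given only for WT, with Flt1 above, so the other counts have no share of all genes beside them. Between genotypes the replicate numbers are shared without naming the same animal, so the block there is no pairing. Centring each group on its median gene turned 2 values, Tek in WT to -0.0311 and Flt1 in KO to -0.00075. Without a trend, or with the filter or the floor, no gene described here passed. Leaving out 1 library changed the sign of Tek in WT (5 of 12 cases: PI WT replicates 1 and 6, CL WT replicates 2, 3 and 5; range -0.09 to 0.08) and Tie1 in KO (PI KO replicates 2 and 5; -0.17 to 0.00). It also did so for Kdr in PI KO against PI WT (PI WT replicates 3 and 6; -0.21 to 0.01) and Angpt2 (PI KO replicates 1, 2 and 5, PI WT replicates 2 and 4; -0.04 to 0.19). All of these means use tied values that still rest on the library left out, so they may understate how far 1 library moves a difference. Tie1 and Angpt2 rest on few reads, 5.37 to 22.9 and 7.77 to 33.0 per library by the deposited values, tied at both ends. Counts of called pathway genes and endothelial markers that moved are given beside those counts, and in the other settings with the trimmed-mean test they stayed within 1.5 times.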
